A study of Solanum lycopersicum with 21 samples.

Results

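The leaves of water-sprayed tomato plants from experiment 2 are described here against those from experiment 1. Both groups are non-treated controls (NTC), and they were taken as the 6 of 21 arrays that the sample labels name mock-sprayed, 3 from each experiment. No measured value entered this choice. The study asked how leaves respond to the hybrid peptide BP178 and to flg15, a fragment of bacterial flagellin. Plants of cv. Rio Grande were grown in rockwool, and leaves were taken 24 h after treatment. RNA of 10 plants was pooled for every array, with 3 arrays in each of 7 groups. Experiment 2 held plants sprayed with flg15 at 125 µM and its own NTC, which received distilled water. Experiment 1 held BP178 at 125 µM, salicylic acid (SA) and jasmonic acid (JA) at 2.5 mM each, ethylene released from ethephon at 1 mM, and its own water-sprayed NTC. The sources give the same cultivar, growth conditions and water spray for both NTC groups, so the number of the experiment is the only labelled difference between them. Whatever else differed between the experiments, from plants to hybridization, cannot be told apart from it. Because each array pools plants, the p values measure the spread between pools.

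Several gene systems report on the state of an untreated leaf. Flavonoid synthesis starts with phenylalanine ammonia-lyase and chalcone synthase, passes through flavanone 3-hydroxylase, and turns to red and blue anthocyanins at dihydroflavonol 4-reductase and anthocyanidin synthase, and its genes are known to answer to strong light, cold and nutrient supply. Pathogenesis-related (PR) proteins such as chitinases, glucanases and osmotins accumulate in attacked or stressed leaves. Wound proteins that hinder insect feeding depend on jasmonate, whereas cyclins, histones, expansins and xyloglucan endotransglucosylase/hydrolases mark leaves whose cells divide and expand.

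The 67795 probe sets carried log2 intensities, and the medians of the 6 NTC arrays ran between 2.67 and 2.81. The lowest value in the series was 0.96. Values near or below these medians are called near the floor here, although no detection limit was measured. Pearson correlations over all probe sets were 0.976 to 0.988 among the experiment 2 NTC arrays and 0.984 to 0.987 among the experiment 1 NTC arrays. Between the groups they were lower, 0.967 to 0.977, with an overlap of the ranges. Replicate 1 of experiment 2 correlated at 0.978 and 0.976 with the other 2 arrays of its group, which correlated at 0.988 with each other.

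The arrays read leaf tissue in both experiments. The 10 nuclear genes of photosynthesis averaged 10.72 to 10.88 on the log2 scale in the experiment 2 arrays and 10.67 to 10.72 in the experiment 1 arrays, and none of the 10 passed the test. Marker genes of other tissues were near the floor, with array means of 1.80 to 1.97 against 1.69 to 1.89 for 3 fruit genes, 2.08 to 2.09 against 2.02 to 2.14 for 5 pollen and pistil genes, and 1.73 to 1.86 against 1.81 to 1.95 for 4 shoot meristem genes. Their brightest members, PG2, PRK1 and KN1, averaged 1.91 to 2.24 in experiment 2 and 1.97 to 2.42 in experiment 1. The lone phloem marker, the sucrose transporter SUT1, was expressed, with 9.34 to 9.42 in experiment 2 and 9.99 to 10.26 in experiment 1, and the log2 difference was −0.76 (adjusted p = 0.00017, limma). The root pair RSI-1 and PT4 averaged 2.03 to 2.47 and 2.45 to 2.83, with PT4 at the floor in both groups. Of 3 glandular trichome genes, NDPS1 was higher in experiment 2, and the monoterpene synthase genes MTS1 and MTS2 lay between 2.09 and 2.47 in both group means. These arrays measured whole leaves, so fewer cells of a type and less RNA per cell cannot be told apart.

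A probe set was called higher or lower in experiment 2 NTC at a fold change of at least 2 in either direction and an adjusted p below 0.05 (limma, two-sided, Benjamini-Hochberg over all probe sets). By this rule 579 probe sets (0.854%) were higher and 631 (0.931%) were lower, 1210 in all (1.78%). Some probe sets, called ones among them, carry the same values as another probe set, so the counts include repeated measurements. The calls were nearly even in number but not in size. A fold change of at least 4 was reached by 51 higher and 101 lower probe sets, one of at least 8 by 4 and 26, and one of at least 32 by 0 and 6. The 3 arrays of experiment 2 lay clear of the 3 of experiment 1 in 575 of the 579 higher and in all 631 lower probe sets, beside 10.3% and 9.74% of all probe sets. These same arrays made the calls, so such separation was largely fixed in advance and adds no support to them. The median difference over all probe sets was −0.002. Probe sets with 1 gene symbol, from which the gene lists below were drawn, were called more often: 466 of 23194 (2.01%) were higher and 502 (2.16%) lower, 4.17% in either direction, 56.6% had a positive difference, and their median was 0.04. In 110 called probe sets (60 higher and 50 lower) the dimmer group mean was below 2.73, the median of the array medians, so the size of their difference depends on the floor.

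**Figure D1:**
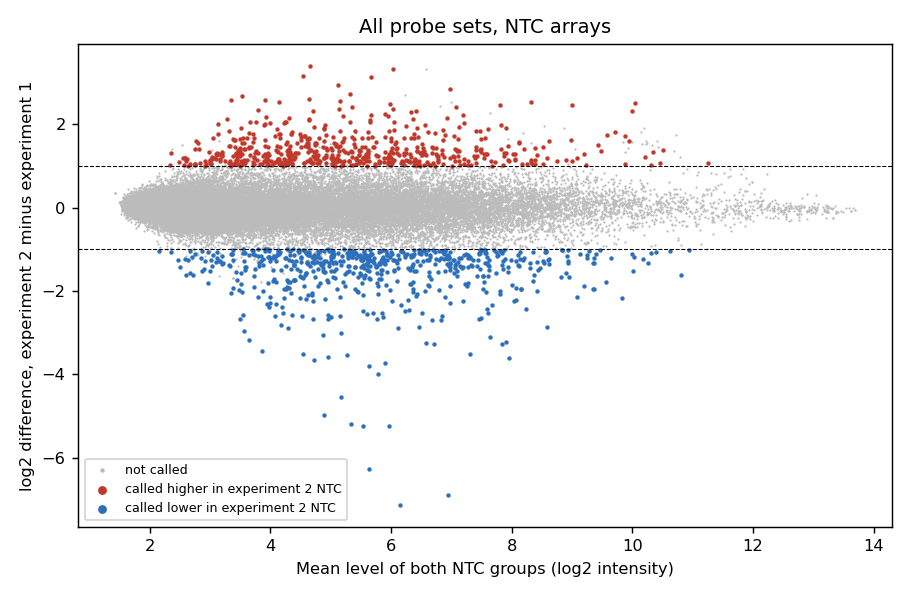
Each point is 1 of 67795 probe sets, with the mean log2 intensity of both NTC groups on the x axis and the log2 difference, experiment 2 minus experiment 1, on the y axis; dashed lines mark a fold change of 2. Called probe sets are red (579 higher in experiment 2) or blue (631 lower), and the blue points reach further from 0 than the red ones.

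The flavonoid and anthocyanin genes that passed the test were all lower in experiment 2 NTC. The array annotation names 3 early flavonoid genes, and all 3 were called lower, with a median log2 difference of −3.22. CHS1, a chalcone synthase, measured 4.52, 5.12 and 5.20 in the experiment 2 arrays against 8.22, 7.94 and 8.47 in the experiment 1 arrays. The highest array of experiment 2 was thus far below the lowest of experiment 1, and the difference was −3.26 (SE 0.30, adjusted p = 1.45e-06). F3H, flavanone 3-hydroxylase, read 6.01, 6.32 and 6.58 against 9.22, 9.38 and 9.97, again without overlap and 9.32-fold lower in experiment 2 (log2 difference −3.22, SE 0.23, adjusted p = 3.18e-08). The other chalcone synthase, CHS2, held steady at 6.62 to 6.66 in experiment 2 and at 8.28 to 8.65 in experiment 1 (log2 difference −1.79, adjusted p = 2.25e-05).

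Genes of later steps are known here by description. Dihydroflavonol 4-reductase (Solyc02g085020) measured 3.54, 3.51 and 2.95 in experiment 2 against 8.34, 8.56 and 8.84 in experiment 1. Its difference of −5.25 (SE 0.27, adjusted p = 8.39e-10) corresponds to 38.0-fold less signal, and the experiment 2 arrays were close to the floor. An anthocyanidin synthase (Solyc08g080040) behaved alike, at 2.51, 3.14 and 3.02 against 7.43, 7.19 and 7.68 (log2 difference −4.54, SE 0.24, adjusted p = 8.39e-10). At the entry of the pathway, a phenylalanine ammonia-lyase-like transcript gave 6.09 to 6.51 against 8.03 to 8.33 (log2 difference −1.89, adjusted p = 9.61e-06). These 3 genes carry a description only because the study had selected them on these arrays, so they are no independent evidence of direction. Over all 770 probe sets with a description, 111 were lower and 25 higher, with a median of −0.16. Of 9 such described genes of phenylpropanoid and flavonoid synthesis, 4 were lower and 0 higher, with a median of −0.52. The remaining one of these 4 was a further gene described as anthocyanidin synthase (Solyc10g076660), whose call rested on experiment 1 replicate 3, with 3.54, 3.30 and 3.18 against 4.91, 4.26 and 6.63 (log2 difference −1.93, adjusted p = 0.0154). Without that array it was −1.24 (adjusted p = 0.0977).

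Other pigment and light genes gave few calls. Over all probe sets with 1 symbol 2.01% were higher and 2.16% lower, and 1 call in a list of 21 or 14 is not below these shares. Of 21 probe sets of carotenoid synthesis and cleavage, only Psy1, a phytoene synthase that opens carotenoid synthesis, was called, with 6.97, 6.90 and 6.92 against 8.32, 8.54 and 8.12 (log2 difference −1.40, adjusted p = 1.45e-06). Lycopene cyclase LCY1 and the carotenoid-binding protein gene ChrC differed by −0.89 and −0.78 (adjusted p = 0.000143 and 0.00708), short of the fold threshold. Of 14 light receptors and regulators, PHOT1, a blue-light receptor of phototropism, was the only call, at 9.05, 9.25 and 9.26 against 7.89, 8.19 and 7.89 (log2 difference 1.20, SE 0.14, adjusted p = 1.81e-05). Its relative PHOT2 overlapped between the groups at 9.69 to 9.93 and 9.75 to 10.13 (log2 difference −0.12, adjusted p = 0.816). The cryptochrome gene Cry1b differed by 0.80 (adjusted p = 0.00548). ANT1 and MYB12, regulators of anthocyanin and flavonol genes in tomato, averaged 2.57 and 2.82 in experiment 2 and 2.23 and 2.91 in experiment 1, at or near the floor, so a difference in them was hardly detectable here. For chlorophyll, CAB4, a chlorophyll a/b-binding protein gene, averaged 12.54 and 12.52 (adjusted p = 0.968), and none of 84 probe sets for genes of the chloroplast genome was called, with a range of −0.26 to 0.34. Some of the 84 repeat the same difference, so they are not all separate measurements. The brightest of these, psbA and the nuclear psaD, averaged 13.59 and 12.93 in experiment 2 and 13.61 and 12.70 in experiment 1. The plastid protease gene ftsH6, listed with chlorophyll breakdown, was lower by the test at 3.02 to 3.72 against 4.48 to 4.73, and the stay-green gene SGR1 was at 3.93 to 3.99 against 4.30 to 4.65 (adjusted p = 0.0774).

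**Figure D2:**
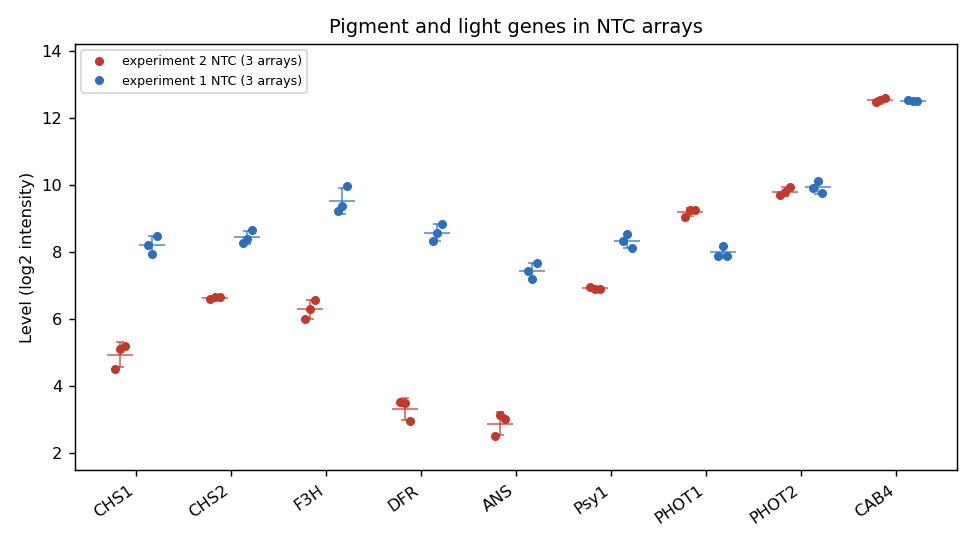
Log2 intensities of 9 pigment and light genes in the 3 experiment 2 NTC arrays (red, left) and the 3 experiment 1 NTC arrays (blue, right); points are arrays, and bars are the mean ± SD. The flavonoid genes CHS1, CHS2, F3H, DFR (Solyc02g085020) and ANS (Solyc08g080040) and Psy1 are lower in experiment 2 with no overlap, PHOT1 is higher, and PHOT2 and CAB4 overlap between the groups.

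Some PR protein genes were much lower in experiment 2 NTC. Of 16 listed PR probe sets, 4 were lower and 0 higher, 13 had a negative difference, and the median was −0.30, beside 2.16% lower and a median of 0.04 over all probe sets with 1 symbol. The chitinase CHI3, which cleaves fungal wall chitin, measured 5.93, 6.22 and 6.12 against 9.24, 7.91 and 10.42, so the experiment 2 arrays were tight and low while those of experiment 1 spread widely above them (log2 difference −3.10, SE 0.35, adjusted p = 1.34e-05). CHI9, another chitinase, gave 6.06, 6.22 and 6.09 against 9.10, 8.75 and 8.56 (log2 difference −2.68, SE 0.23, adjusted p = 4.19e-07). For the peroxidase CEVI-1 the values were 4.07, 5.02 and 4.93 against 8.38, 7.34 and 7.0 (log2 difference −2.90, adjusted p = 1.21e-05). The secreted subtilase P69B, a protease of the leaf apoplast, differed by −1.47 (adjusted p = 0.00165). The classical PR1 genes on the list, PR-1a1, PR1b1 and P4, averaged 1.75 to 2.40 in experiment 2 and 1.62 to 2.33 in experiment 1, and no difference was detectable at that level. In all, 7 of the 16 averaged below 2.73 over the NTC arrays.

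Among 19 PR genes known by description, and so selected by the study on these arrays, 9 were lower and 0 higher, with a median of −1.11. All 770 described probe sets together gave 111 lower and 25 higher, with a median of −0.16. An osmotin-like gene (Solyc08g080640), of the PR5 family of membrane-active proteins, read 3.48, 4.50 and 3.19 against 7.90, 7.14 and 7.58 (log2 difference −3.81, SE 0.30, adjusted p = 1.38e-07). Its neighbour in number (Solyc08g080650) differed by −2.64, and a PR1a (LOC100191111) by −3.0 with 3.65, 2.95 and 4.40 against 7.43, 6.28 and 6.30. Glucan endo-1,3-beta-glucosidase B-like LOC101261650, an enzyme that cuts fungal wall glucan, was among the 10 largest decreases of genes with 1 symbol, with 5.68, 6.61 and 6.14 against 10.25, 9.42 and 9.61 (log2 difference −3.62, adjusted p = 3.79e-09). A dimmer probe set of the same gene, at means of 2.32 and 2.23, was not called (adjusted p = 0.872). Near-identical copies of chitinases and osmotins may share probes, so the members of these families are not separate measurements.

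The wound protein genes called lower in experiment 2 NTC were highest in 1 array of experiment 1. Of 7 listed genes, 2 were lower and 0 higher, with a median of −0.61, beside 2.16% lower and a median of 0.04 over all probe sets with 1 symbol. Differences were negative in 6 of them and positive in the arginase gene ARG1 (0.44, not called). Arginase ARG2, which depletes arginine in the gut of insects, measured 4.32, 3.40 and 3.68 against 4.59, 4.86 and 6.71 (log2 difference −1.58, adjusted p = 0.0334), and the leucine aminopeptidase lap2 gave 6.45, 5.42 and 5.58 against 7.17, 6.61 and 8.59 (−1.64, adjusted p = 0.0215). Replicate 3 of experiment 1 was the highest array for both. Without it the differences were −0.92 for ARG2 and −1.07 for lap2 (adjusted p = 0.202 and 0.147), and both calls also ended without experiment 2 replicate 2 or 3. Threonine deaminase Td had the same array on top, at 10.71 beside 8.65 and 8.83, and did not pass the test (8.17 to 8.50 in experiment 2, adjusted p = 0.375). A polyphenol oxidase (Solyc08g074630) that browns wounded tissue, known by description, gave 5.30, 5.66 and 5.21 against 6.58, 6.97 and 8.83, and its difference of −2.07 (adjusted p = 0.0122) was −1.39 without replicate 3 (adjusted p = 0.0821). It lost its call without experiment 2 replicate 3 as well (−1.98, adjusted p = 0.0537).

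Oxylipin genes split within the pathway. Lipoxygenases oxidize fatty acids, and allene oxide synthase and cyclase then lead to jasmonate. Of 14 probe sets, 2 were higher and 3 lower, and the median was −0.08, beside 2.01% higher and 2.16% lower over all probe sets with 1 symbol. The lower ones belong to the jasmonate route: loxD, a wound-induced lipoxygenase, at 5.40, 5.50 and 5.76 against 7.06, 6.75 and 7.24 (log2 difference −1.46, SE 0.17, adjusted p = 1.99e-05), aos at 3.08, 3.20 and 3.66 against 5.42, 4.46 and 5.78 (−1.91, adjusted p = 0.000536), and aoc at 7.17, 7.45 and 7.62 against 8.60, 8.35 and 9.40 (−1.37, adjusted p = 0.000244). The higher ones were other lipoxygenases. The expression of loxF was 6.79, 7.17 and 7.20 against 5.37, 5.29 and 5.46 (log2 difference 1.68, SE 0.26, adjusted p = 0.000308), and loxC, known for flavour volatiles in tomato fruit, was at 6.77, 6.66 and 7.10 against 5.52, 5.20 and 6.01 (1.26, adjusted p = 0.0106). The loxC call ended without experiment 1 replicate 2 (adjusted p = 0.0666) or experiment 2 replicate 3 (adjusted p = 0.0626). OPR1, the listed gene with the highest level in this pathway, overlapped between the groups (9.03 to 9.38 and 8.90 to 9.11).

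Regulators of immunity and ethylene gave 4 calls, all lower, beside 2.16% lower over all probe sets with 1 symbol. Among 23 probe sets of immune regulators 3 were lower and 0 higher, with a median of −0.07. NML2, a relative of the salicylic acid regulator NPR1, was at 5.58, 5.97 and 5.86 against 7.70, 7.61 and 8.03 (log2 difference −1.98, SE 0.15, adjusted p = 5.71e-08). Of the NADPH oxidases, which make signalling superoxide, RBOH1 measured 4.63, 4.76 and 4.97 against 6.52, 6.64 and 6.36 (−1.72, adjusted p = 8.30e-05), and Wfi1 differed by −1.15 (adjusted p = 5.72e-05). Of 31 ethylene probe sets only the receptor gene ETR4 was called, at 3.42, 3.96 and 4.01 against 5.12, 5.24 and 5.75 (−1.58, adjusted p = 8.62e-05). A single call of 31 is near the share of all probe sets with 1 symbol. The median of the ethylene list was −0.25, with 19 negative and 12 positive differences. Its synthesis genes ACS3 and ACS6 differed by 1.32 and 1.01 without passing the test. The ethylene-forming oxidase ACO4, highest of that list, was at 7.90 to 8.49 against 8.79 to 9.04 (−0.66, adjusted p = 0.0255), below the fold threshold. A further probe set of ACO4 was near the floor at means of 2.26 and 2.05 (0.20, adjusted p = 0.728).

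Stress genes did not move as a block. None of 14 heat shock probe sets was called, and their median was 0.06. Hsp90-1, the brightest of them, averaged 9.98 and 10.35 (adjusted p = 0.203). Of 17 cold, drought and abscisic acid genes, 1 was higher and 2 were lower, beside 2.01% higher and 2.16% lower over all probe sets with 1 symbol. ER5, of the late embryogenesis abundant proteins that accumulate on drying, read 4.97, 5.02 and 5.29 against 6.82, 6.38 and 6.61 (log2 difference −1.51, adjusted p = 0.00114). Galactinol synthase GolS2, which makes precursors of protective sugars, was at 2.88 to 3.45 against 4.25 to 5.28 (−1.70, adjusted p = 0.00084). The transcription factor DREB2 went the other way at 5.23 to 5.65 against 4.21 to 4.73 (1.06, adjusted p = 0.00127), and its call ended without experiment 1 replicate 1 or 3 or experiment 2 replicate 3, when the difference was 0.99, 0.97 and 0.96. Among 6 genes of phosphate starvation, 5 of nitrogen assimilation and 23 of sugar and starch, 0 were called. Of the 23 sugar and starch genes, however, 19 had a negative difference, and the median was −0.17. Over all probe sets with 1 symbol, 56.6% were positive. The nitrite reductase gene nii1 was at 8.55 to 8.85 against 8.72 to 8.88, the sulfolipid gene SQD1 at 8.57 to 8.71 against 8.69 to 8.79, the starch synthesis gene agpL3 at 9.77 to 10.0 against 9.84 to 10.03, and the kinase gene SRK2C at 7.23 to 7.34 against 7.12 to 7.24.

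**Figure D3:**
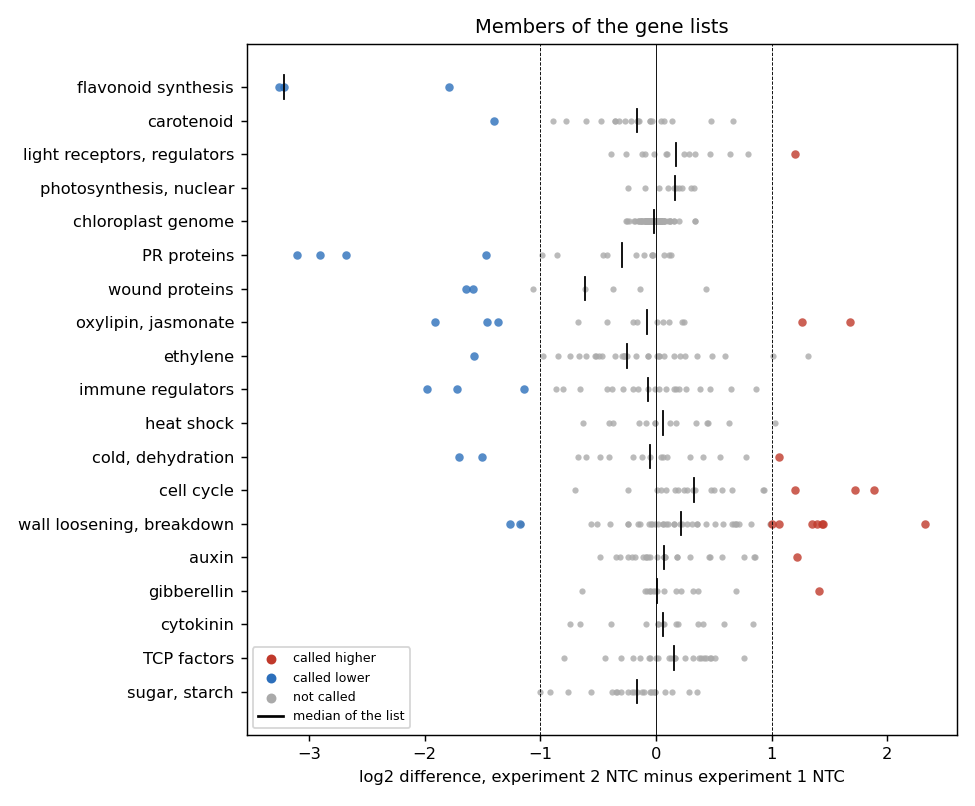
Log2 difference, experiment 2 NTC minus experiment 1 NTC, of every probe set in 19 gene lists; each point is a probe set, filled red or blue where called higher or lower, and the black bar is the list's median. All 3 early flavonoid genes and 4 PR proteins lie left of −1, 7 wall genes and 3 cell cycle genes at or right of 1, and the 84 chloroplast probe sets stay between −0.26 and 0.34.

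Several growth genes were higher in experiment 2 NTC. Of 20 cell cycle probe sets 3 were higher and 0 lower, 18 had a positive difference, and the median was 0.33, beside 2.01% higher and 56.6% positive over all probe sets with 1 symbol. The cyclin CycA2, needed for DNA replication and mitosis, measured 5.50, 5.91 and 6.08 against 3.42, 4.31 and 4.09 (log2 difference 1.89, SE 0.25, adjusted p = 6.82e-05). DNApolalpha, the polymerase that starts DNA strands, gave 5.09, 5.54 and 5.65 against 3.50, 3.75 and 3.87 (1.72, SE 0.17, adjusted p = 2.87e-06). The mitotic kinase cdkB2 was at 5.06, 5.78 and 5.25 against 3.68, 4.53 and 4.28 (1.20, adjusted p = 0.00761), a call that ended without experiment 1 replicate 1 or experiment 2 replicate 2 (0.96 and 0.99). The histone H2B-1 and the cyclin cycD3 differed by 0.93 and 0.92 (adjusted p = 0.00116 and 0.0468), under the fold threshold, and H1, the brightest of the list, by 0.50 (adjusted p = 0.00984).

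Wall enzymes that loosen or cut the cell wall gave the most calls of any list in number. They did not give the largest share, since all 3 early flavonoid genes were called. Of 44 probe sets 7 were higher and 2 lower, 30 had a positive difference, and the median was 0.21, beside the same 2.01%, 2.16% and 56.6% of probe sets with 1 symbol. XTH16, a xyloglucan endotransglucosylase/hydrolase that rearranges wall xyloglucan, was one of the brightest, at 10.97, 11.24 and 11.26 against 8.35, 9.15 and 8.99, and 5.02-fold higher in experiment 2 (log2 difference 2.33, SE 0.20, adjusted p = 6.14e-07). XTH7 of the same family read 10.91, 11.11 and 11.04 against 9.70, 9.73 and 9.59 (1.34, adjusted p = 6.07e-06). The expansin EXP2, which loosens walls during cell expansion, was at 8.80, 9.19 and 9.32 against 7.63, 7.50 and 7.89 (1.43, adjusted p = 2.56e-05). XTH9 and XET2 differed by 1.45 and 1.39, and the call of the endoglucanase cel5 (1.07) ended without experiment 1 replicate 1 or experiment 2 replicate 3 (0.83 and 0.84). That of EXPA5 sat on the threshold and ended in 3 of 6 omissions of an array. The family was not uniform: XTH6 was lower at 6.68 to 6.78 against 7.78 to 8.19 (−1.26, adjusted p = 0.0013), as was the pectin methylesterase PMEU1 at 9.34 to 9.48 against 10.45 to 10.91 (−1.18, adjusted p = 2.62e-05).

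Hormone genes of growth gave few calls. Over all probe sets with 1 symbol 2.01% were higher and 2.16% lower, so lists this short would hold few at that share. The gibberellin 20-oxidase 20ox-2, which makes gibberellin precursors, was the only call of 15 gibberellin genes, at 3.15 to 3.83 against 1.89 to 2.28 (1.41, adjusted p = 9.44e-05), where the experiment 1 arrays were at the floor. Of 27 auxin genes the repressor gene IAA10 alone was called, at 4.09 to 4.62 against 3.08 to 3.17 (1.22, adjusted p = 0.000207). Among 14 cytokinin genes and 24 probe sets of TCP factors, which control leaf growth, 0 were called, with medians of 0.06 and 0.16. The brightest members of these lists were not called either: the auxin repressor gene IAA9 averaged 10.40 and 9.93, the gibberellin repressor gene GAI 7.63 and 7.68, the cytokinin-activating LOG6 9.18 and 8.60, and the brighter of the TCP11 probe sets 9.19 and 8.76.

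**Figure D4:**
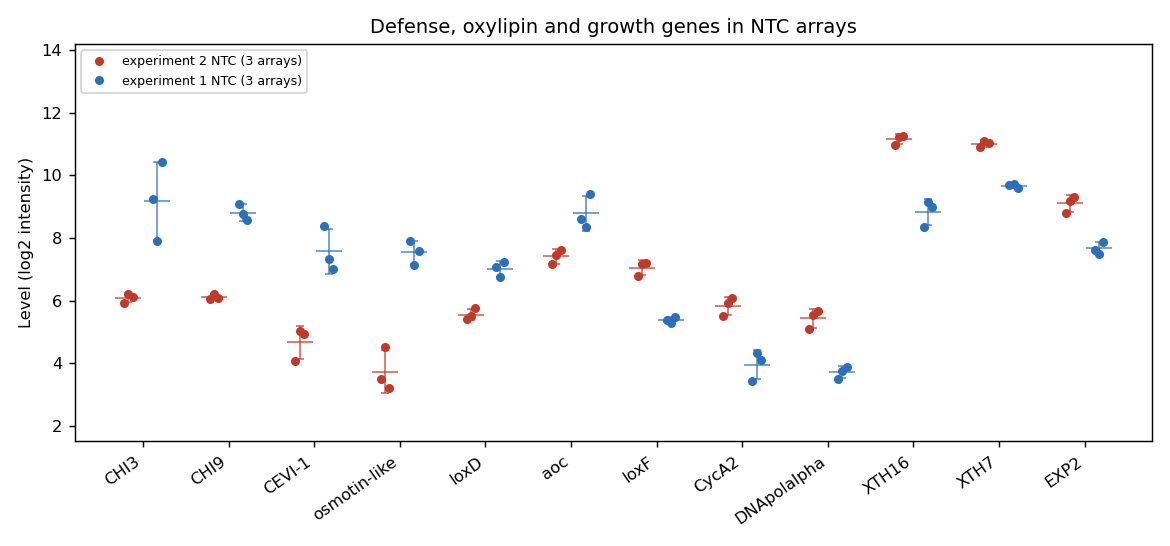
Log2 intensities of 12 defense, oxylipin and growth genes in the 3 experiment 2 NTC arrays (red, left) and the 3 experiment 1 NTC arrays (blue, right); points are arrays, and bars are the mean ± SD. From CHI3 to aoc (osmotin-like is Solyc08g080640) experiment 2 is lower, from loxF to EXP2 it is higher, and in none of the 12 do the groups overlap.

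In all 29 lists together, which hold 456 distinct probe sets, 17 were higher and 23 lower, beside 2.01% and 2.16% of all probe sets with 1 symbol. GAME1 and NDPS1 completed these calls. GAME1, a glycosyltransferase of steroidal glycoalkaloid synthesis, was at 8.64 to 8.89 against 9.64 to 10.10 (−1.05, adjusted p = 0.00725), and its call ended without experiment 1 replicate 3 (−0.91) or experiment 2 replicate 1 (−0.99). NDPS1, which makes a terpene precursor in glandular trichomes, gave 4.39, 4.14 and 5.11 against 2.77, 2.69 and 2.79 (1.80, SE 0.29, adjusted p = 0.000485).

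The largest differences among genes with 1 symbol lay mostly outside the lists; probe sets with no symbol were not ranked, and some of them differed as much. LOC101265881 measured 3.27, 3.65 and 3.56 in experiment 2 NTC against 10.24, 10.26 and 10.70 in experiment 1 NTC (log2 difference −6.91, SE 0.41, adjusted p = 3.79e-09). LOC101257156 was at 2.08, 2.64 and 2.74 against 8.32, 8.71 and 9.27 (−6.28). LOC100191129 and LOC101264620 differed by −5.23 and −4.97, with every experiment 2 array at 3.17 or less. The sources used here describe none of these 4. Among described decreases were a zinc finger protein-like gene (LOC101249062, −4.0), an RCC1-type regulator of chromosome condensation (LOC101249643, −3.74), an IBR finger domain protein (LOC101250202, −3.67), the alcohol dehydrogenase Eli3 (2.95, 3.27 and 3.26 against 6.56, 6.63 and 7.03, −3.58) and the 1-aminocyclopropane-1-carboxylate oxidase-like ODD (5.16, 5.66 and 5.83 against 9.16, 8.69 and 9.35, −3.52).

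Increases were smaller. The largest of a gene with 1 symbol was LOC101250416, at 6.12, 6.33 and 6.63 against 2.66, 2.96 and 3.26 (log2 difference 3.40, SE 0.23, adjusted p = 2.41e-08). A UDP-glucuronosyltransferase (LOC101248084), of the enzymes that attach sugars to small molecules, gave 5.84, 6.51 and 6.00 against 2.75, 3.30 and 2.86 (3.15, adjusted p = 1.23e-05). The other 8 of the 10 largest by the same ranking, LOC101266778, LOC101055515, LOC101252583, LOC101252498, LOC101246143, LOC101261198, LOC101261603 and LOC101255712, differed by 2.52 to 2.94 and have no description here. LOC101261198 and LOC101255712 were bright and tight in experiment 2 (9.55 to 9.64 and 11.19 to 11.40) and scattered in experiment 1 (5.93 to 8.06 and 8.04 to 9.35), and the call of LOC101261198 ended without experiment 1 replicate 1 (1.98, adjusted p = 0.0615).

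Further genes were picked after their values had been seen. Lower in experiment 2 NTC were enzymes of several pathways. GABA-TP1 and GABA-TP2, transaminases that break down GABA, averaged 6.01 and 9.86 in experiment 2 and 7.55 and 10.93 in experiment 1, differences of −1.55 and −1.07. GGP and GME1 of ascorbate synthesis averaged 10.42 and 8.33 in experiment 2 and 11.45 and 9.34 in experiment 1 (−1.03 and −1.01). The NAC transcription factor JA2 gave 5.21, 5.73 and 5.74 against 7.37, 7.28 and 8.04 (−2.0, adjusted p = 2.52e-06), and the phosphatase PP2C-2 was at 4.42 to 4.59 against 6.46 to 6.69 (−2.10, adjusted p = 3.01e-07). On the higher side stood PDH, with means of 8.86 and 6.95 (1.91), and THT7-1, a tyramine hydroxycinnamoyl transferase that makes wall amides, with 7.43 and 5.30 (2.13). The sesquiterpene synthase gene CAHS had means of 8.22 and 6.19 (2.03), and a germacrene C synthase-like transcript differed by 1.65. Higher as well was a 3-ketoacyl-CoA synthase of fatty acid elongation (LOC101258036), at 7.05, 7.24 and 7.40 against 3.46, 5.46 and 5.28 (2.50, adjusted p = 0.000275). Cyclin D3-1 (Solyc04g078470) and a histone H3 (LOC101245793) differed by 1.31 and 1.59. Of the 770 probe sets with a description, 25 were higher and 111 lower. Many were described because they differed from experiment 1 NTC after a treatment, so this ratio is not independent of the levels in those arrays.

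The same genes were then read in the treated leaves of both experiments. The means compared between flg15 leaves (experiment 2) and BP178 leaves (experiment 1) hold no NTC array. Treatment and experiment cannot be told apart in this comparison. Its spread and adjusted p came from the fit of all 21 arrays, NTC included, so its calls are not independent of the NTC calls. Against BP178 leaves, 432 probe sets (0.637%) were higher and 1117 (1.65%) lower in flg15 leaves. With quantile normalization the counts were 545 and 886, and with median centring 331 and 1407, so the share of higher calls was 27.9%, 38.1% and 19.0%. Of the 579 probe sets higher in experiment 2 NTC, 234 (40.4%) were also higher in flg15 leaves, which is 54.2% of the flg15 list. Of the 631 lower ones, 425 (67.4%) were also lower, 38.0% of that list, and 0 probe sets of either list were called in the opposite direction. Signs were equal in 565 of 579 and in 608 of 631. The share of equal signs over all probe sets was not counted, so these sign counts stand without a baseline.

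For 3 of the flavonoid genes described above, F3H, CHS1 and dihydroflavonol 4-reductase, the arrays of the experiments did not overlap in any group, whereas those of CHS2 did, at 6.43 to 6.79 in experiment 2 and 6.10 to 8.65 in experiment 1. F3H lay between 5.85 and 6.58 over the 6 arrays of experiment 2 and between 7.50 and 9.97 over the 15 of experiment 1, and its difference between flg15 and BP178 leaves was −2.65 (adjusted p = 3.28e-07). Dihydroflavonol 4-reductase (Solyc02g085020) ranged from 2.72 to 3.54 and from 5.28 to 8.84, with a peptide difference of −4.19. CHS1 followed with 4.28 to 5.46 and 5.65 to 8.47. In experiment 1 the water controls were the highest of the 5 groups for all 3 genes. Psy1 did not separate, since the JA leaves of experiment 1 averaged 6.71, below the 6.93 of experiment 2 NTC.

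Among defense genes the treatments overlaid the contrast. CHI3 averaged 9.45 in flg15 leaves, above the 6.09 of its own NTC and the 9.19 of experiment 1 NTC, and 11.18 in BP178 leaves (flg15 minus BP178 −1.73, adjusted p = 0.0035). CHI9 stayed between 6.06 and 7.14 in experiment 2 and between 7.41 and 10.50 in experiment 1. ETR4 separated as well, at 3.42 to 4.01 and 4.96 to 7.57, and RBOH1 at 3.61 to 4.97 and 5.39 to 6.66. For aos the NTC difference had no counterpart, with means of 4.32 after flg15 and 4.71 after BP178 (−0.39, adjusted p = 0.574).

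The growth lists gave fewer higher calls between flg15 and BP178 leaves than between the NTC groups. Of the cell cycle probe sets 1 was higher and 1 lower in flg15 leaves, with a median of 0.05. Of the wall probe sets 3 were higher and 2 lower, with a median of 0.12. Among single genes higher in experiment 2 NTC, loxF ranged from 6.79 to 7.28 in the 6 arrays of experiment 2 and from 4.12 to 5.78 in the 15 of experiment 1. CycA2 covered 4.84 to 6.08 and 2.66 to 4.31, PHOT1 8.62 to 9.26 and 7.01 to 8.19, and NDPS1 4.09 to 5.18 and 2.46 to 3.77. XTH16 overlapped through the JA leaves, with 10.40 to 11.26 and 7.63 to 10.95. Such full separation, without a test, held for 259 of the 579 higher and 258 of the 631 lower probe sets, beside 636 (0.938%) and 828 (1.22%) of all probe sets. The NTC arrays that made the calls are among the arrays counted, so a larger share among called probe sets was partly fixed in advance.

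**Figure D5:**
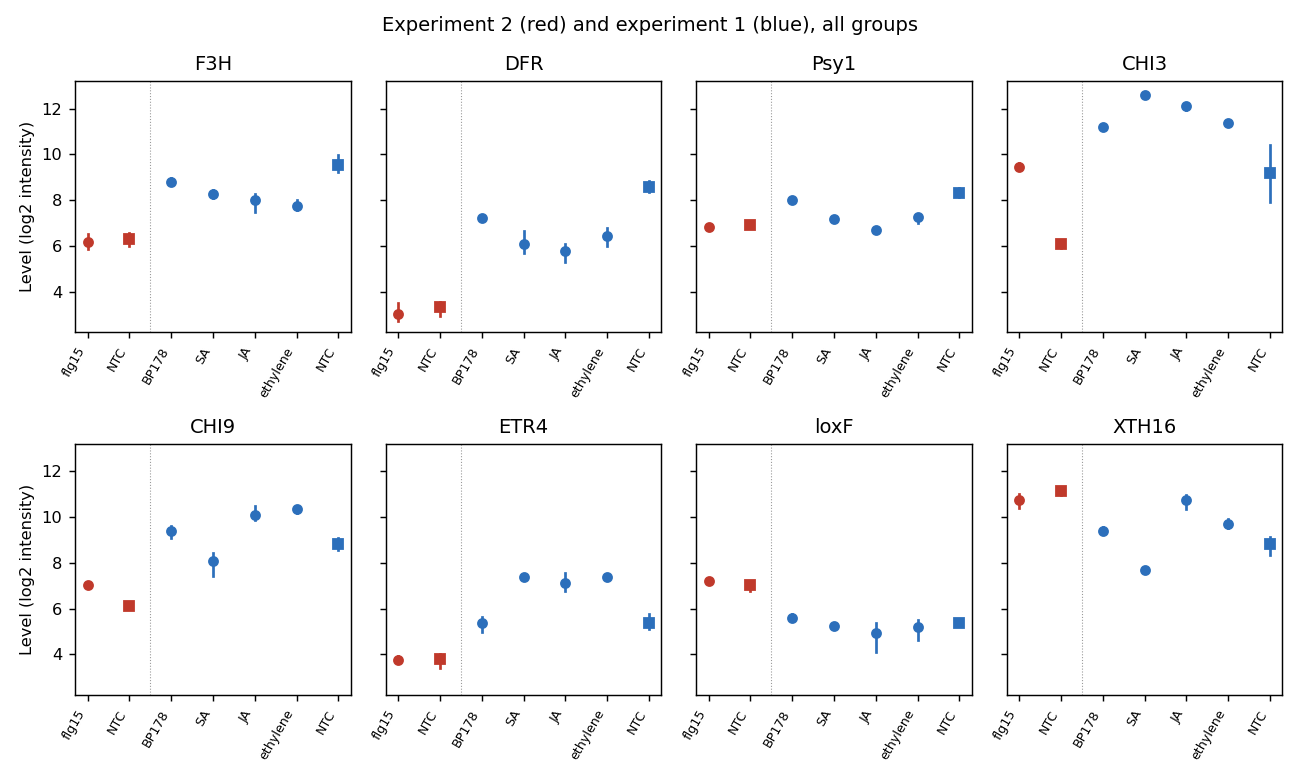
Log2 intensity of 8 genes in all 7 groups, with experiment 2 (flg15 and NTC) in red on the left and experiment 1 (BP178, SA, JA, ethylene and NTC) in blue on the right; markers are means of 3 arrays (squares for NTC), and lines run from the lowest to the highest array. F3H, DFR (Solyc02g085020), CHI9, ETR4 and loxF separate the experiments in every array, whereas Psy1, CHI3 and XTH16 overlap.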

How the data were processed

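Leaf RNA was hybridized to the GeneChip Tomato Gene ST array. The authors corrected the probes for background, normalized and summarized them by RMA (robust multi-array average) in Expression Console (version not given in the sources used here), and deposited the log2 intensity of each of 67795 probe sets. RMA equalizes the arrays, so a shift shared by all transcripts would not be seen, and it compresses differences near the floor. An array yields no read counts, and precision depends on how many arrays a group has.

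The model was fitted to all 21 arrays with limma (version 3.58.1, R version 4.3.3), with 1 mean per group and a constant empirical Bayes prior, and the contrast was experiment 2 NTC minus experiment 1 NTC. The methods give the thresholds (fold change of 2 or 0.5 and false discovery rate) but no model. In simulated data the fit recovered 49 of 50 changes of 1.5 on the log2 scale and 50 of 50 at each larger size. The simulated noise was independent between arrays and took its spread from the fit itself, and no change below 1.5 was planted. The simulation therefore does not bear on deviating arrays or on calls near the fold threshold. The comparison and the gene lists were chosen with earlier results of these data known. Lists were drawn from the symbols of the array annotation alone, where 23194 probe sets have 1 symbol, 170 have several and 44431 have none. Descriptions for 770 probe sets came from the study's supplementary lists of responding transcripts, whose fold changes and p-values were not used. Genes were named by rule: the 10 largest increases and decreases with 1 symbol and no overlap, up to 5 called members of each list, and the brightest member of each list; other genes are said to be described or picked after their values were seen. Alternatives were other normalizations, centring, filters on dim probe sets, priors, weights, thresholds, a replicate block, a fit of the 6 NTC arrays alone, and each NTC array left out. Sequences and coordinates were left out, since the sources used here name no build for the array.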

Additional observations from a re-analysis of the deposited data

How the results depend on the processing

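The counts of 579 higher and 631 lower probe sets stayed within 1.5 times under every alternative except that without a minimum fold change, which gave 1665 and 1609. The other alternatives ran from 493 to 685 higher and from 556 to 720 lower, and leaving out an array gave 437 to 817 higher and 534 to 672 lower, the highest count of higher calls without experiment 2 replicate 1. Of the main calls, 345 higher and 435 lower remained in all 6 omissions. List members called were 17 higher and 23 lower, 37 and 46 without a minimum fold change, and 13 to 22 and 21 to 26 with an array left out. For flg15 against BP178 leaves the counts ran from 331 to 545 higher and 886 to 1407 lower. Of 179 called genes that were named by the rule or described, 135 kept their call under every alternative run on them, and 0 changed sign. The 23 named genes without a call gained none under these alternatives, which for single genes did not include another threshold or array weights.

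No pairing of NTC arrays by replicate number was assumed: the deviations of same-numbered NTC arrays from their group means correlated at 0.288, 0.0753 and 0.0721, and the labels name no shared plants. With the replicate number as a block, 577 probe sets were higher and 635 lower, and of list members 18 and 23.

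The calls leave out smaller differences, since 3274 probe sets had an adjusted p below 0.05 at any fold change. Near or below 2.73, the median of the array medians, the size of a difference is uncertain. The experiment holds both the plants and any batch of arrays, so the cause of the differences was not tested.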
